A study of Mus musculus with 19 samples.

Results

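Genes of synaptic vesicle priming and exocytosis were examined for extrachromosomal circular DNA (eccDNA), circles cut or copied from the chromosomes, in mouse cervical spinal cord. Members were taken by gene symbol from the families *Cadps*, *Unc13*, *Rims*, *Erc*, rabphilin, synaptotagmin, synaptotagmin-like, syntaxin, SNAP, VAMP, syntaxin-binding, synapsin, *Sv2*, complexin, *Nsf* and exocyst. The rule found 46 of the 8336 genes in the table. Amyotrophic lateral sclerosis (ALS) was modelled in 9 male B6.Cg-Tg(SOD1*G93A)1Gur/J mice, which constitutively overexpress mutant human superoxide dismutase (hSOD1G93A) and were taken with motor symptoms at 18 to 21 weeks of age. The 10 controls were male C57BL/6J mice of the same ages without the transgene. Mutants with no motor phenotype in that window had been excluded, so the ALS group holds symptomatic animals only. Each animal gave 1 library of its own, which makes the replicates separate animals.

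Neurons release transmitter when vesicles docked at the active zone are primed and then fuse with the plasma membrane. Fusion is driven by SNARE proteins (syntaxin, SNAP-25 and VAMP), which Munc13 and CAPS proteins prepare in the priming step and which synaptotagmins trigger when calcium enters. RIM and ELKS proteins build the active zone around these sites, and the exocyst tethers secretory vesicles to the membrane elsewhere in the cell.

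The quantity measured per gene was the PpGC, a sum of split reads over the eccDNAs that overlap it, scaled to gene length, and all levels are given as log2(PpGC + 1). Split reads cross the junction of a circle, and a level of 0 means that no eccDNA with at least 2 split reads overlapped the gene. The table gives no junction positions, so a value does not tell whether exons, introns or a whole gene were on the circle. Circles had been amplified by rolling circle amplification before sequencing, so split reads do not count circles. In DNA of whole tissue, circles in fewer cells and fewer circles per cell cannot be told apart. The libraries differed in load. ALS samples had an eccDNA in 694 to 2204 genes (median 1114) and 74016 to 391394 split reads on genes (median 176919). Controls had an eccDNA in 57 to 723 genes (median 157.5) and 3583 to 123387 split reads on genes. Of all values deposited, 91.1% were 0.

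Every ALS sample carried eccDNA from exocytosis genes, and 6 of the 10 controls carried none. The number of members with an eccDNA was 12, 11, 20, 12, 8, 8, 7, 8 and 10 in ALS samples 1 to 9, a mean of 10.7 ± 3.97 (SD over 9 samples). It was 8 in control 1, 4 in control 2, 1 in control 8, 4 in control 9 and 0 in the other controls, a mean of 1.70 ± 2.75 (SD over 10 samples). The groups overlapped, since control 1 reached the level of ALS samples 5, 6 and 8 and exceeded ALS sample 7. Members made up 0.820% of all gene values above 0 in ALS samples (96 of 11710) and 0.698% in controls (17 of 2434). Per sample this share ran from 0.556% to 1.30% in ALS and from 0% to 1.87% in controls, and the highest share was that of control 9. Members were 0.552% of the genes in the table.

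**Figure D1:**
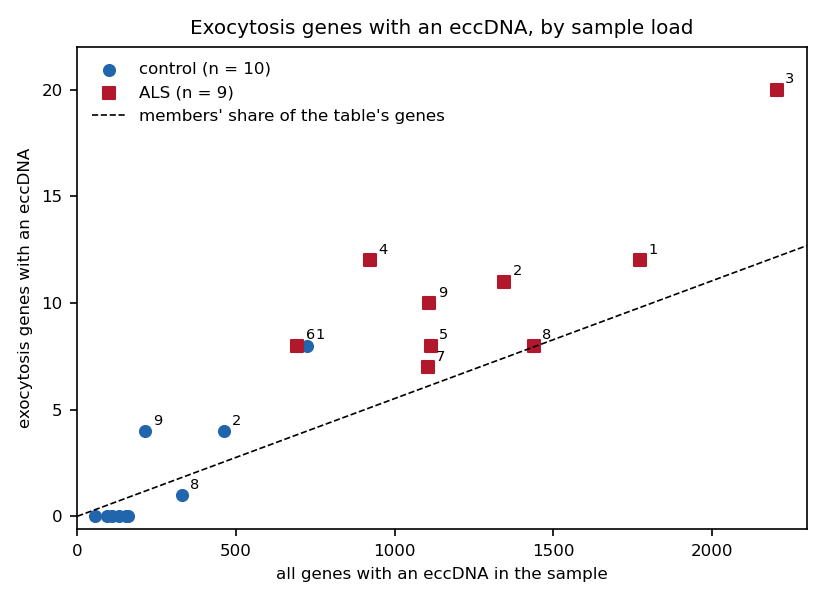
Number of exocytosis genes with an eccDNA (vertical axis) against the number of all genes with an eccDNA (horizontal axis) in each of the 10 control (blue circles) and 9 ALS samples (red squares), with the replicate number beside each sample above 0. The dashed line marks the members' 0.552% share of the table; ALS sample 3 has the most members (20) and the most genes (2204), and control 1 (8 members, 723 genes) lies beside ALS sample 6 (8 members, 694 genes).

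A gene was called up in ALS when the difference of mean log2 PpGC was above 1 and the two-sided Student p under 0.01. Both thresholds are those of the study's methods, which name Student's test without saying whether it was one-sided or two-sided. A one-sided Student p under 0.01 gave 4 members and 189 of all genes, and the counts that follow are two-sided. *Unc13c* and *Cadps2* passed both thresholds, which is 2 of 46 members (4.35%) against 1.33% of all genes. In the other direction 0 members passed, against 0.0% of all genes. By the exact permutation test 3 members had p under 0.05, *Unc13c*, *Cadps2* and *Exoc4* (6.52%), against 2.05% of all genes. No member passed after Benjamini-Hochberg adjustment over the 8336 genes (smallest adjusted p 0.382 by Student and 1.0 by the exact permutation test); at an unadjusted Student p under 0.05 there were 6 members higher in ALS (13.0%) against 4.2% of all genes. The mean was higher in ALS for 40 members (87.0%) against 86.5% of all genes. The median difference was 1.29 over the members and 1.19 over all genes. An eccDNA in ALS samples only was found for 31 members (67.4%) against 75.0% of all genes, and in control samples only for 2 members, *Rims3* and *Syt15*, against 10.9% of all genes. The remaining 13 members had eccDNA in both groups. An eccDNA in 1 sample only was found for 19 members (41.3%) against 66.2% of all genes, and 17 members (37.0%) had eccDNA in 3 or more ALS samples against 11.8%.

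**Figure D2:**
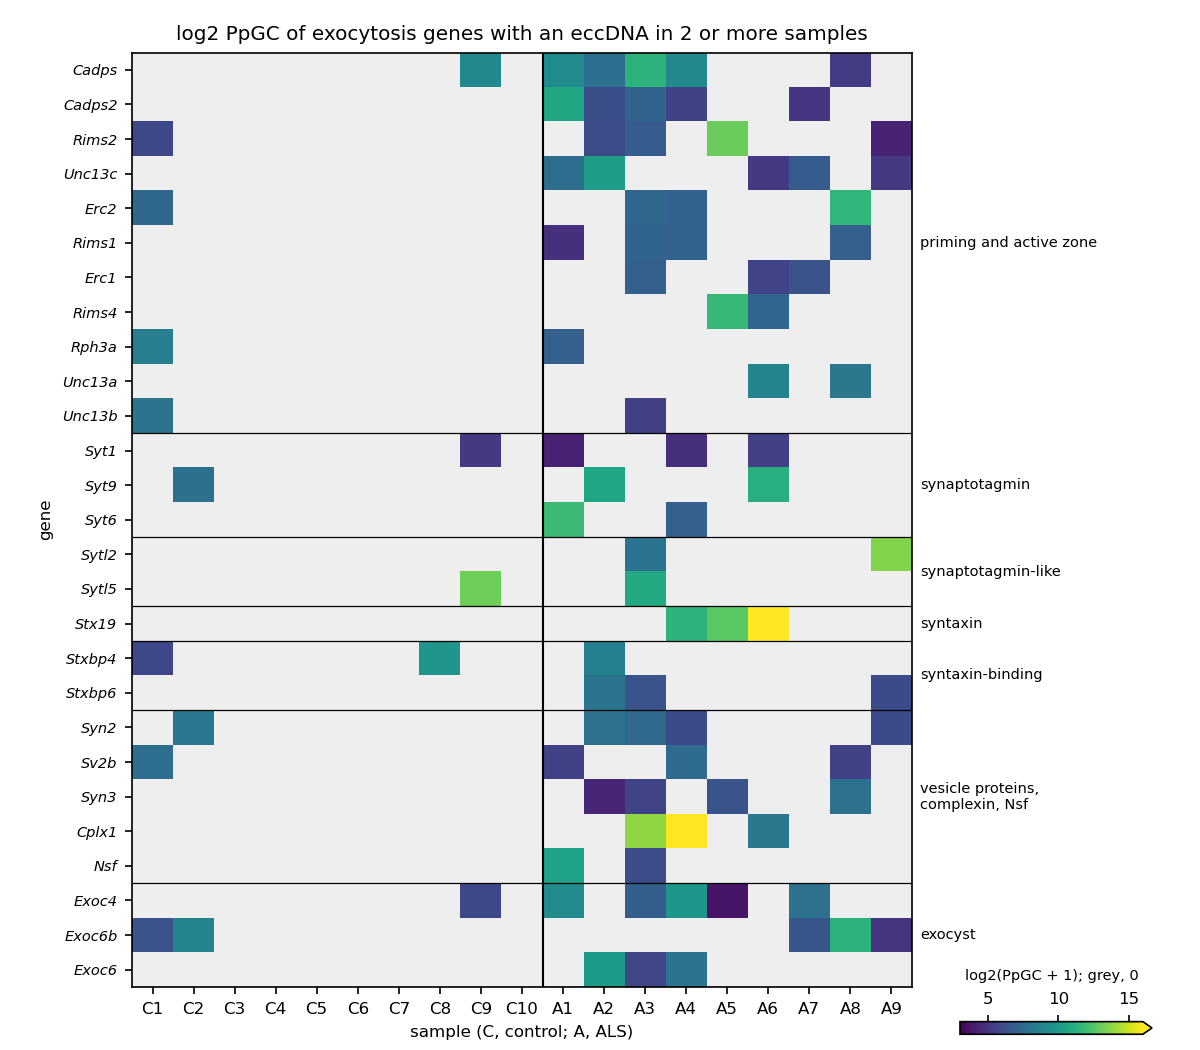
Level of each of the 27 members with an eccDNA in 2 or more of the 19 samples (rows, grouped by family) in the 10 control (C1 to C10) and 9 ALS samples (A1 to A9), coloured by log2(PpGC + 1), with grey for 0 and the top colour for all levels of 16 and above. Controls 3, 4, 5, 6, 7 and 10 are grey throughout, and no member is coloured in more than 5 ALS samples.

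Both called members, *Unc13c* and *Cadps2*, are over 400 kb, a length at which 19.7% of all genes were called. Priming and active zone genes held both calls, 2 of 12 (16.7%) against 1.33% of all genes. Of the 12 members of this group 9 had a higher mean in ALS and 6 had no eccDNA in any control, shares below the 86.5% and 75.0% of all genes. Their median difference was 2.12 against 1.19 over all genes, 1.75 over all genes of 200 to 400 kb and 2.81 over those longer than 400 kb, and their median length was 364 kb. *Unc13c* (chr9:73479422-73968966, mm10, minus strand), a Munc13 protein that prepares syntaxin for fusion, had a log2 PpGC of 7.71 in ALS sample 1, 10.24 in sample 2, 5.22 in sample 6, 6.78 in sample 7 and 5.22 in sample 9, and 0 in the other ALS samples and all controls. These levels rest on 4 to 133 split reads. The difference of means was 3.91 (SE 1.26; exact permutation p = 0.0217), and presence in 5 of 9 against 0 of 10 samples gave p = 0.0108 by Fisher's exact test. The other 4 ALS samples sat at 0 like the controls. Its paralogs had eccDNA in fewer samples. *Unc13a*, the Munc13 isoform of most central synapses, had eccDNA in ALS samples 6 (8.87) and 8 (8.14) only. *Unc13b* had it in ALS sample 3 (5.46) and control 1 (8.02), with a difference of -0.20 that was 0.61 without control 1.

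CAPS proteins, encoded by *Cadps* and *Cadps2*, prime dense-core vesicles, which carry peptides and amines. *Cadps2* (chr6:23262773-23839421, minus strand) stood at 10.74 in ALS sample 1, 6.13 in sample 2, 7.12 in sample 3, 5.56 in sample 4 and 4.99 in sample 7, with no control above 0. Only sample 1, with 223 split reads, lay above 8; the other levels came from 4 to 18 split reads. The difference was 3.84 (SE 1.26; exact permutation p = 0.0217) and Fisher's exact p was 0.0108. *Cadps* (chr14:12372563-12823079) had eccDNA in ALS samples 1 (9.30), 2 (7.77), 3 (11.40), 4 (9.16) and 8 (5.34), and in control 9 at 9.06. Its mean difference of 3.87 was about that of *Cadps2*, but the single control lay among the ALS levels and the exact permutation p was 0.0526. At least 1 of the CAPS genes had an eccDNA in 6 of 9 ALS samples and in 1 of 10 controls, and ALS samples 1 to 4 had both. Both are over 400 kb, and a single gene of that length averaged 4.52 ALS and 1.22 control samples over the table. Other pairs of such genes were not compared.

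RIM proteins hold calcium channels and vesicles at the active zone. *Rims1* stood at 4.73, 7.19, 7.10 and 7.01 in ALS samples 1, 3, 4 and 8 and at 0 in every control (difference 2.89, SE 1.11; exact permutation p = 0.0650; Fisher's exact p = 0.0325). *Rims2* (chr15:39198261-39684372) stood at 6.02, 6.79, 13.01 and 4.27 in ALS samples 2, 3, 5 and 9 and at 5.80 in control 1. The level in ALS sample 5 came from 905 split reads and that in sample 9 from 2, and the difference of 2.76 (SE 1.57) had an exact permutation p of 0.108. Without ALS sample 5 the *Rims2* difference was 1.55. *Rims4* was above 0 in ALS samples 5 and 6, whereas *Rims3* had its only eccDNA in control 2 (8.73). Taking the 4 *Rims* genes as 1 family, 8 of 9 ALS samples and 2 of 10 controls had an eccDNA from at least 1 of them. A count over several genes reaches more samples than 1 gene does, and other sets of 4 genes were not compared.

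The ELKS scaffolds *Erc1* and *Erc2* bind RIM. *Erc1* was at 7.01, 5.61 and 6.34 in ALS samples 3, 6 and 7 with no control above 0 (difference 2.11; exact permutation p = 0.173). *Erc2*, the longest member, was at 7.29, 7.03 and 11.57 in ALS samples 3, 4 and 8 and at 7.34 in control 1 (difference 2.14; exact permutation p = 0.390), so that the control lay inside the ALS range, and the difference was 1.06 without ALS sample 8. The 25 split reads of *Erc2* in ALS sample 4 equal those listed for Gm45645, an antisense gene inside it. *Rph3a*, a Rab3 effector on vesicles, had 1 ALS and 1 control sample (7.01 and 8.58).

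**Figure D3:**
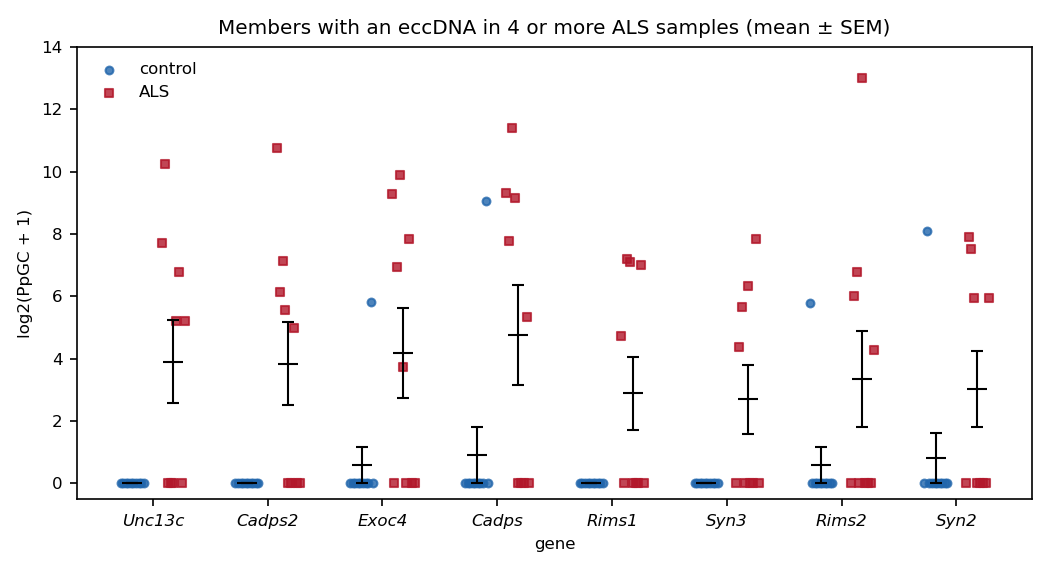
Level, log2(PpGC + 1), of the 8 members with an eccDNA in 4 or more ALS samples, each point 1 sample (blue circles, 10 controls; red squares, 9 ALS samples), with bars for the mean ± SEM. At least 4 ALS samples sit at 0 for every gene, and 1 control sits above 0 for *Exoc4*, *Cadps*, *Rims2* and *Syn2*.

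The synapsin, *Sv2*, complexin and *Nsf* genes, 6 members, all had a higher mean in ALS, as had 86.5% of all genes, and 0 were called, against 1.33% of all genes. *Syn3*, a synapsin that tethers vesicles in the reserve pool, was at 4.39, 5.67, 6.34 and 7.85 in ALS samples 2, 3, 5 and 8 and at 0 in all controls (difference 2.69, SE 1.04; exact permutation p = 0.0650; Fisher's exact p = 0.0325). *Syn2* was at 7.92, 7.51, 5.94 and 5.94 in ALS samples 2, 3, 4 and 9 and at 8.09 in control 2, which was above every ALS level (exact permutation p = 0.238). At least 1 of the synapsin genes had an eccDNA in 6 of 9 ALS samples and 1 of 10 controls, and other pairs of genes were not compared. *Cplx1*, which encodes a complexin that clamps and then promotes fusion, had a larger difference (4.24, SE 2.11) from fewer samples, at 13.84, 16.21 and 8.14 in ALS samples 3, 4 and 6 (exact permutation p = 0.173). Without ALS sample 4 the difference was 2.75. *Cplx1* is 31.5 kb long and its levels came from 104, 539 and 2 split reads, so that the length scaling lifts each of them. The glycoprotein genes *Sv2b* and *Sv2c* had eccDNA in 3 and 1 ALS samples, *Sv2b* also in control 1 at 7.69, above its ALS levels of 5.54, 7.52 and 5.54, and *Nsf*, the ATPase that takes spent SNARE complexes apart, in 2.

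No member among the synaptotagmin, synaptotagmin-like and SNARE genes was called, against 1.33% of all genes, and in so few genes 0 calls is near that share. EccDNA was found in a mean of 1.50 ALS samples per synaptotagmin and 1.33 per syntaxin gene, against 1.40 over all genes. *Syt1*, the sensor of fast synchronous release, had low levels in ALS samples 1 (4.19), 4 (4.75) and 6 (5.47) and in control 9 (5.15), from 2 to 5 split reads, and a difference of 1.09 that was 0.60 without ALS sample 6. Of 6 synaptotagmins 5 had a higher mean in ALS. *Syt15* had its only eccDNA in control 1, at 19.03 from 1308 split reads, the most negative difference of any member (-1.90). Of the 3 synaptotagmin-like genes, whose proteins bind Rab27, 2 were higher, and *Sytl5* was at 10.87 in ALS sample 3 and 13.12 in control 9.

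All 6 syntaxins had eccDNA in ALS samples only, against 75.0% of all genes, and 5 of them in 1 sample each. Of the 4074 genes under 50 kb, the length of most syntaxins here, 3325 had no eccDNA in any control. The exception was *Stx19*, at 11.43, 12.65 and 23.91 in ALS samples 4, 5 and 6, with a difference of 5.33 (SE 2.74; exact permutation p = 0.173). That value was the highest of any member but was 3.01 without ALS sample 6, below that of 8 other named members in the same samples, from *Cadps* (4.46) to *Syn3* (3.03). *Stx19* is 9.67 kb long and lies inside *Arl13b* (chr16:62793685-62847040, minus strand), a gene of the primary cilium. In all 3 samples both genes were listed with the same number of split reads, 6, 14 and 34292, so the circles cannot be assigned to either gene. The 34292 split reads are 12.4% of all split reads on genes in ALS sample 6 and 99.7% of its split reads on members. *Vamp1*, the synaptobrevin abundant in spinal motor neurons, had eccDNA in ALS sample 7 (10.00), and *Snap91*, which the symbol rule took in although it encodes a clathrin adaptor, in ALS sample 5 (8.86). Of the 4 syntaxin-binding genes 3 had eccDNA in ALS samples only. *Stxbp6* had it in ALS samples 2, 3 and 9 (8.02, 6.34 and 5.93). *Stxbp4* was at 8.59 in ALS sample 2 and 5.80 and 9.78 in controls 1 and 8 (difference -0.60, but 0.31 without control 8; exact permutation p = 0.805).

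All 7 exocyst genes had a higher mean in ALS, as had 86.5% of all genes, and 0 were called up by both thresholds, against 1.33%. *Exoc4*, which encodes the SEC8 subunit, was at 9.29, 6.95, 9.88, 3.73 and 7.83 in ALS samples 1, 3, 4, 5 and 7 and at 5.81 in control 9. Of the 5 ALS samples above 0, 4 were above the control, and the difference was 3.60 (SE 1.50; exact permutation p = 0.0372). *Exoc6b*, with *Stxbp4* the member in most controls, had 6.48, 11.40 and 4.93 in ALS samples 7, 8 and 9 against 6.32 and 8.79 in controls 1 and 2 (difference 1.02, but -0.084 without ALS sample 8; exact permutation p = 0.563). Its paralog *Exoc6* had eccDNA in ALS samples 2, 3 and 4 (10.09, 5.79 and 7.94) and in no control, with a difference of 2.65, or 1.72 without ALS sample 2. *Exoc2*, *Exoc3*, *Exoc3l2* and *Exoc7* had it in 1 ALS sample each.

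Where a member had an eccDNA, the levels of the groups overlapped. The median was 7.80 in ALS samples (range 3.73 to 23.91, 96 values) and 8.02 in controls (5.15 to 19.03, 17 values). A difference of means therefore combines the number of samples with an eccDNA and its level in them. Of the 110 values whose split reads could be worked out, 25 (22.7%) rested on 2 or 3 split reads, and the median was 10.

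The members were longer than the table as a whole, though they ran from 9.67 to 856 kb and 30 of 46 were under 200 kb. Their median gene length was 133 kb against 49.3 kb for all genes, and 16 of 46 (34.8%) were 200 kb or longer against 12.7% of the 8088 genes with a known position. Calls followed length in the whole table and in the members. Among genes of at least 200 kb, 2 of 16 members (12.5%) were up by both thresholds against 9.61% of all 1030 such genes, 3 (18.75%) had an exact permutation p under 0.05 against 15.0%, and 12 (75.0%) had eccDNA in 3 or more ALS samples against 60.6%. Among genes over 400 kb the counts were 2 of 10 members up (20.0%) against 72 of 365 (19.7%), and 3 of 10 (30.0%) against 31.5% by the exact permutation test. Under 200 kb, 0 of 30 members and 11 of 7058 genes were up. The number of ALS samples with an eccDNA per gene averaged 4.10 for members over 400 kb and 4.52 for all genes of that length, 1.67 and 2.57 at 200 to 400 kb, 1.80 and 1.41 at 50 to 200 kb, and 1.20 and 0.94 under 50 kb. Length and number of ALS samples had a Spearman correlation of 0.63 across the 46 members and 0.52 across all placed genes, given as a description, since genes share the libraries. Base composition was close to that of the table, with a median GC content of 42.1% against 43.3% and a median share of repeats of 24.3% against 25.2%. Exons made up a median of 6.49% of a member's length, against 8.94% over all genes.

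**Figure D4:**
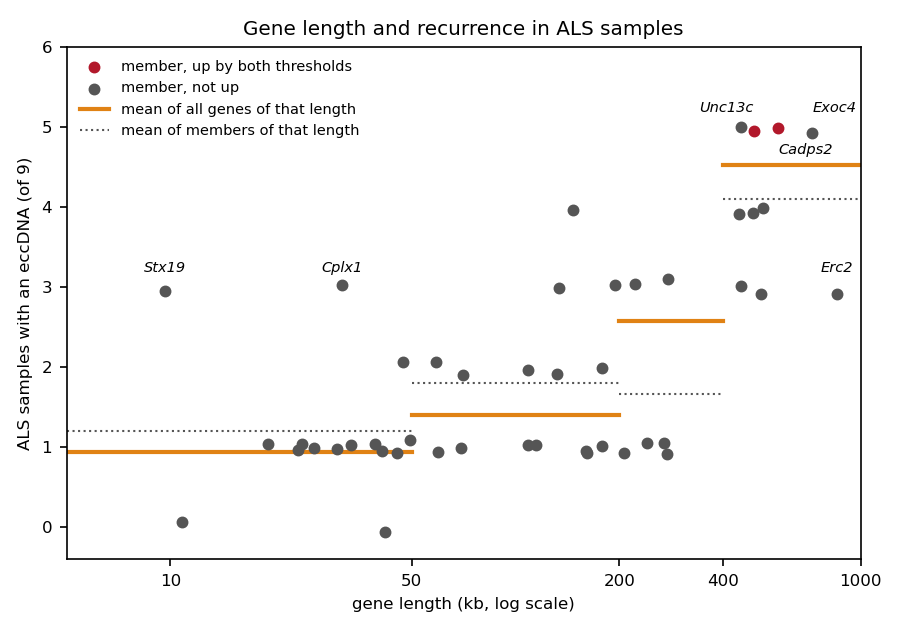
Number of ALS samples (of 9) with an eccDNA from each member against its length in kb on a log scale, with points moved slightly up or down to keep them apart. Solid orange lines mark the mean over all genes of a length class (4.52 over 400 kb) and dotted lines the mean over members (4.10 over 400 kb); both genes up by both thresholds (red) are over 400 kb, and *Stx19* and *Cplx1* are short genes present in 3 ALS samples.

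A list of 61 further genes of the release pathway that the symbol rule leaves out held 30 genes of the table. Of these 27 had a higher mean in ALS and 3 a lower one, with a median difference of 1.31 against 1.19 over all genes. *Vti1a*, at 311 kb, was the only one up by both thresholds, against 1.33% of all genes and 4.06% of genes of 200 to 400 kb, and at 0.875 its Benjamini-Hochberg adjusted exact permutation p did not pass. *Vti1a*, an endosomal and vesicle SNARE (chr19:55316295-55627309), was at 13.16, 5.45, 9.26, 5.86, 7.17 and 5.86 in ALS samples 3 to 8 and at 0 in all controls. The difference was 5.19 (SE 1.43; exact permutation p = 0.00619), from 3 to 640 split reads per sample, and exceeded that of every member except *Stx19*. The list holds the active zone scaffold *Pclo*, with eccDNA in 3 ALS samples and no control (difference 4.24; exact permutation p = 0.173), and *Cacna1a*, the pore of the P/Q-type calcium channel, with eccDNA in 4 ALS and 2 control samples (difference 2.08; exact permutation p = 0.238).

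When the number of genes with an eccDNA per sample entered the fit, the call of *Cadps2* and *Unc13c* was lost. That number was 694 to 2204 in ALS samples and 57 to 723 in controls, and only control 1 reached the ALS range. Load and group can therefore hardly be told apart, and the values of this fit reach beyond the loads that the groups share. *Cadps2* turned to -0.61 and *Cadps* to -2.29 in that fit, and *Unc13c* stayed at 4.61 without passing the p threshold. *Exoc4* was at 1.29 and *Syn3* at 0.032. *Stx19* was up in that fit at 16.16, and 26 of the 8336 genes were up. Its level in ALS sample 6 came from 34292 split reads that are also listed for *Arl13b*. *Unc13b* was down by both thresholds (-4.68), as were 84 genes of the table (1.01%). It was above 0 only in ALS sample 3 (2 split reads) and control 1 (12 split reads). With the libraries scaled to equal totals instead, *Cadps2* (3.68) and *Unc13c* (3.60) both remained up. The calls also rest on single samples: leaving out ALS sample 2 or ALS sample 7 removed both, although the differences stayed at 3.55 and 3.70 for *Cadps2* and 3.12 and 3.55 for *Unc13c*. Leaving out ALS sample 1, 6 or 9 removed *Unc13c* alone, and leaving out ALS sample 3 or 4 or any 1 of the 10 controls removed *Cadps2* alone, without a control at an unaltered difference of 3.84, while *Cadps* passed without control 9.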

How the data were processed

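DNA of the cervical spinal cord of 9 ALS and 10 control mice was studied. The authors digested 400 ng of DNA per animal with exonuclease V for 7 days, amplified circles by rolling circle amplification for 48 h, sequenced 1 library per animal, called eccDNA on mm10 with Circle_Finder (minimum non-overlap 10 bp), removed eccDNAs with fewer than 2 split reads, and intersected the rest with GENCODE genes by bedtools. The GENCODE release and tool versions are not given in the sources used here. The deposited values are log2(PpGC + 1), where the PpGC is the sum of split reads times the length of the longest gene over that of the gene, and they are not scaled between samples. Differences in load between samples therefore remain in the values.

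Members and lists were chosen with earlier results of these data known. Members, found by symbol, were tested in the fit of all 8336 genes of the table, with Benjamini-Hochberg adjustment over all of them. Up in ALS means a difference of means over 1 together with p under 0.01 by the two-sided Student test. Single genes were tested with an exact permutation test, which enumerated all 92378 assignments of the 2 group labels (two-sided, as 2 times the smaller tail; smallest possible p 2.17e-05, which for 1 gene would adjust to 0.180) and presence with Fisher's exact test. p-values of named genes are unadjusted unless stated. Named genes were *Cadps*, *Cadps2* and *Rims2*, members up by both thresholds, the 12 with the smallest exact p, the 5 most negative, the 5 in most samples and in most controls, and the 5 longest, 20 in all; other members are named to complete their families and were chosen after their values were seen, and 1 member that enters the counts is not reported here by name. Split reads were worked out from the gene length (within 0.02 of a whole number for 98.9% of values above 0; 45 of 46 members, all but *Exoc6*); amplified reads are not independent molecules. Positions and lengths are those of GENCODE M21 on mm10 (8088 genes with 1 ID per name). The table holds 0 columns of other samples. Scripts were tested on simulated data. Python 3.11.15, NumPy 2.4.6, pandas 2.3.3, SciPy 1.17.1, matplotlib 3.10.9, R 4.3.3 and limma 3.58.1 were used. Alternatives were other tests and thresholds, limma, sample load as covariate or by scaling, no length scaling, a pseudocount of 100, a presence call, a filter of 3 samples, the replicate number as block, and each sample left out.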

Additional observations from a re-analysis of the deposited data

Results flagged for a closer look

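In the ALS group the sample with the most members stood apart from the others. ALS sample 3 had 20 members with an eccDNA, the next 12 and the lowest 7, a gap of 0.6154 of the range against a critical value of 0.493 for 9 samples. The same sample had the most genes with an eccDNA of any sample (2204). For split reads on members, ALS sample 6 had 34404 against a median of 640, a gap of 0.9422 of the range, and 34292 of these reads are those of *Stx19*. Among controls, control 1 had 8 members against 4 in the next sample, a gap of 0.5 of the range against a critical value of 0.466 for 10 samples. It also had the most split reads on members (1382, gap 0.7938), of which 1308 are those of *Syt15*, and the most genes with an eccDNA of any control (723). These were 4 of 23 groups of values tested, and another 23 groups with fewer than 2 samples above 0 were not tested. By chance about 1 in 20 stands apart in this way if values follow a normal distribution. The values here are skewed and many are 0, so that rate is no measure of how many to look for.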

How the results depend on the processing

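The direction and call of the 20 named members stayed as reported in 238 of the 268 results of alternatives that were not single samples left out. Most of the 20 members were not called, and alternatives that alter only the test, threshold or filter keep the difference. Much of that count was therefore fixed in advance. Of the other results, 17 were a lost call of *Cadps2* or *Unc13c*, and with load as covariate *Cadps2* reversed. The 2 members up became 0 with the exact permutation p at the same threshold, with Benjamini-Hochberg adjustment (also among genes with an eccDNA in 3 or more samples), at p under 0.001, without gene length scaling, with a pseudocount of 100 and as presence or absence; they became 4 with a one-sided p (*Rims1* and *Syn3* added) and 1 (*Stx19*) with sample load (how many genes had an eccDNA) as covariate. Over all genes, 111 up became, in the same order, 64, 6 (37 with the filter), 29, 71, 9 and 57, then 189 and 26, and 60 with equal totals per sample, where both members stayed up. limma gave 166 genes and 2 members. With the replicate number as a block, 54 genes and 0 members were up, at differences of 3.84 for *Cadps2* and 3.91 for *Unc13c* as without it. Same-numbered ALS and control samples correlated at -0.0205 to 0.0226 in their deviations and 2 of 9 best with their own number. With 91.1% of values at 0, these correlations cannot show whether same-numbered samples were processed together, and the labels give no pairing.

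With load as covariate *Cadps* (-2.29), *Cadps2* (-0.61), *Erc2* (-2.47), *Exoc6b* (-1.18), *Rims1* (-0.69), *Rims2* (-0.27) and *Stxbp6* (-0.27) reversed, and *Unc13b* (-4.68) passed both thresholds as lower in ALS. Load and group can hardly be told apart in that fit, and the cause was not tested. As presence, *Sytl5* and *Unc13b* reversed to 1.11 percentage points higher in ALS. Leaving out 1 sample gave 85 to 133 genes up (fewest without ALS sample 3), 0 to 2 members up, and a difference in members per sample of 7.80 to 9.67. It turned *Sytl5* (-1.31 to 1.21), *Unc13b* (-0.80 to 0.61, without control 1), *Stxbp4* (-1.56 to 0.31, without control 8) and *Exoc6b* (-0.084, without ALS sample 8, to 1.83). The difference of 8.97 members per sample was 3.88 with levels of at least 8, 4.87 for members of 200 kb or longer, 4.10 for shorter ones and 0.437 percentage points as a share of the sample's genes. Low split reads limit the single values that rest on them, among them the 25 of 110 from 2 or 3 split reads.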

Other observations

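The members lie on 18 chromosomes, with 6 of them on chromosome 6. Of the genes above 0 in an ALS library, the percentage lying on 1 chromosome varied between libraries by more than counting gives for some chromosomes. On chromosome 6, which holds *Cadps2*, *Exoc4*, *Exoc6b*, *Erc1*, *Syn2* and *Vamp1*, the share was 5.92% to 7.40% and chi-square per degree of freedom was 0.438, and on chromosome 9, which holds *Unc13c*, it was 5.08% to 7.77% and 1.11. On chromosome 14, which holds *Cadps*, *Erc2* and *Syt15*, it was 1.10% to 7.51% and 12.03, and on chromosome 1, which holds *Rims1*, 1.60% to 13.8% and 20.6. The 5 ALS libraries with eccDNA from *Cadps* had 3.18% to 7.51% of their genes on chromosome 14, and the 4 without had 1.10% to 5.55%. For *Rims2* on chromosome 15 the 4 libraries with eccDNA had 1.85% to 4.34% (median 3.98%) and the 5 without had 3.55% to 6.08% (median 5.57%). Whether these shares bear on the single genes was not tested.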
